A study of Mus musculus with 11 samples.

Results

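The receptors with which natural killer (NK) cells sense other cells were followed here through 10 genes, Klrb1c, Klrb1b, Klrb1f, Klrc1, Klrd1, Klre1, Klrg1, Klrk1, Klra2 and Ncr1. They were taken by gene symbol, all 10 symbols were present, and the table held 25677 genes in total. RNA had been sequenced from whole kidneys of female mice killed at 21 weeks of age, and each mouse gave 1 library. The control group (Ctr) held 3 C57BL/6J mice, the disease group (Lpr) held 4 MRL/lpr mice, and the treated group (DNase) held 4 MRL/lpr mice that had received deoxyribonuclease I, an enzyme that cuts DNA, by daily intraperitoneal injection from 17 weeks of age. MRL/lpr mice carry the lpr mutation of the death receptor gene Fas and develop a lupus-like disease with T cell accumulation and nephritis. Both MRL/lpr groups therefore share strain and mutation, whereas Ctr differs from them in strain, in the mutation and in disease, and these cannot be told apart in any comparison with Ctr. The sources used here name no vehicle injection for Lpr.

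NK cells weigh activating against inhibitory signals from receptors on their surface. Most of these receptors are C-type lectin-like proteins encoded side by side in the natural killer gene complex, a region that differs between inbred strains in gene content and sequence, and the reference genome is that of C57BL/6J. Several of them are also carried by activated CD8+ T cells, innate lymphoid cells and, for some members of the Ly49 family, myeloid cells. In RNA from a whole organ, fewer cells of a type and less RNA per cell cannot be told apart.

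Of the 10 genes, 9 lie on mouse chromosome 6 (GRCm38). Of these, 8 fall within 2.47 Mb, from 128778485 at the start of Klrb1c to 131247362 at the end of Klra2. Klrg1, at 122270596 to 122282882, lies outside that interval. Ncr1 is the exception on chromosome 7, at 4337724 to 4345164, and it encodes an immunoglobulin-type receptor (NKp46) rather than a lectin-like one. Some members resemble each other closely. In windows of 100 bases, 22.3% of the annotated transcript sequence of Klrb1b and 10.8% of that of Klrb1c also occurred in another gene (Gm44511, and for Klrb1c also Klrb1a), and 14.6% of that of Klrc1 occurred in Klrc2. Counts of these 3 genes are uncertain, because how reads with several matches were counted is not given in the sources used here. A share of windows is not a share of reads, so the size of that uncertainty was not measured. The other 7 genes shared no such window.

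Promoter sequences of 8 members were held in the RefSeq table (GRCm38.p6), with none for Klrd1 and Klrg1. The 3 genes that passed the test against Ctr (Klrk1, Klrc1, Klra2) are given with Ncr1, which is the member encoded elsewhere. Each run covers 250 bases before and 50 bases from the start of the transcript, 5′ to 3′ on the strand of the gene. Capitals mark the letters TGTGGT, the core bound by RUNX factors, or the same letters read on the other strand. The windows are chr6:129623815-129624114 (minus strand) for Klrk1, chr6:129678924-129679223 (minus strand) for Klrc1, chr6:131247313-131247612 (minus strand) for Klra2 and chr7:4337465-4337764 (plus strand) for Ncr1.
Klrk1: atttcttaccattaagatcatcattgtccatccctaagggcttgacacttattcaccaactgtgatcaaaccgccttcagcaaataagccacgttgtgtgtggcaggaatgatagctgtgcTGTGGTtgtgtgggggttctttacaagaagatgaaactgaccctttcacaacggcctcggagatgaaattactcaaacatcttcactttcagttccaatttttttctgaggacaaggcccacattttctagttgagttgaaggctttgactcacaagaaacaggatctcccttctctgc
Klrc1: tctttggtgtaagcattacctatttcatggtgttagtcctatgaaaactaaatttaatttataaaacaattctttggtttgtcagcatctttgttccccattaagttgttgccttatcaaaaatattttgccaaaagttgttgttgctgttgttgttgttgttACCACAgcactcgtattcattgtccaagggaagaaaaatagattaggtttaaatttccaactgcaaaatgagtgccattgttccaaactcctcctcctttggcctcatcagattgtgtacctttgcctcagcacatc
Klra2: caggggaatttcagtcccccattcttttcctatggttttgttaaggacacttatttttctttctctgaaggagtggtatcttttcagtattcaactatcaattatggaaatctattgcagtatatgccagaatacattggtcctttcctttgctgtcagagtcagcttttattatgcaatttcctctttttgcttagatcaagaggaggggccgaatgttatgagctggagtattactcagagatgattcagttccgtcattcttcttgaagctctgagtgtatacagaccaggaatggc
Ncr1: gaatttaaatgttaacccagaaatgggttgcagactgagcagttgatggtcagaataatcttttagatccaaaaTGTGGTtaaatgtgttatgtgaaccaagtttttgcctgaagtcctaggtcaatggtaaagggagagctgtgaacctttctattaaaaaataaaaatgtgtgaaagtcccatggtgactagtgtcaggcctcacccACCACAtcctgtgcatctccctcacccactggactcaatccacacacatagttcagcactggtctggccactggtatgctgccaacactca
The RUNX letters occurred on either strand in 5 of the 8 member promoters (Klrb1c, Klrc1, Klre1, Klrk1 and Ncr1, the last with 2 matches), and in 16.9% of 27025 promoters of the same length. In Klrk1 the match lay 129 to 124 bases before the start, and in Klrc1 it lay 87 to 82 bases before it on the opposite strand. The letters GGAAGT, a core bound by ETS factors, occurred in 3 of the 8 (Klrb1b, Klrb1c and Klrb1f) and in 24.1% of all promoters. The T-box letters GGTGTGA occurred in 0 of the 8 and in 3.96% of all. None of the 3 motifs overlapped another in these windows, and the Klra2 window held none of them. A match of letters is not a site of binding, and a missing match says nothing about a factor.

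Libraries held 33469858 to 38460873 counted fragments. Replicates of a group differed by far more than sampling noise, as chi-square divided by its degrees of freedom ran from 16.5 to 80.1 over pairs of libraries without Lpr replicate 3 and from 359 to 366 over the 3 pairs with it. The library Lpr replicate 3 stood apart in the dependence of its counts on gene length, with a slope of -0.393 against -0.0433 to 0.0775 in the other 10, and values without it are given beside the members that were called and where a direction or a value turns on it. Kidney identity was clear in every group: the 10 kidney markers, among them Umod of the thick ascending limb and Lrp2 of the proximal tubule, summed to between 9980 and 17200 CPM (counts scaled to a common library size).

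The receptor genes were low in all kidneys. Summed over the 10 genes, they reached 1.77 to 3.59 CPM in Ctr, 12.8 to 24.7 CPM in Lpr and 9.87 to 18.6 CPM in DNase, after scaling of library sizes (TMM). Per length, in FPKM, the deposited unit that also divides by gene length, Klra2 stood first in Lpr at 2.91 ± 0.624 (SD, n = 4) and in DNase at 2.09 ± 0.606 (SD, n = 4). Klrk1 came next in both, at 1.10 ± 0.453 FPKM in Lpr and 0.880 ± 0.243 FPKM in DNase, followed by Klrd1 at 1.02 ± 0.574 and 0.765 ± 0.304 FPKM. Klra2 lay above Klrk1 without overlap in both MRL/lpr groups. No other pair of neighbours in the order had separate ranges in any group. In Ctr the order was led by Klrd1 (0.268 ± 0.221 FPKM, n = 3) and Klra2 (0.204 ± 0.152 FPKM, n = 3), and it ended with Klrg1 at 0.0344 ± 0.0326 FPKM. Klrb1f, at 0.0674 ± 0.0361 FPKM in Lpr and 0.0739 ± 0.0296 FPKM in DNase, was last in both MRL/lpr groups.

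**Figure D1:**
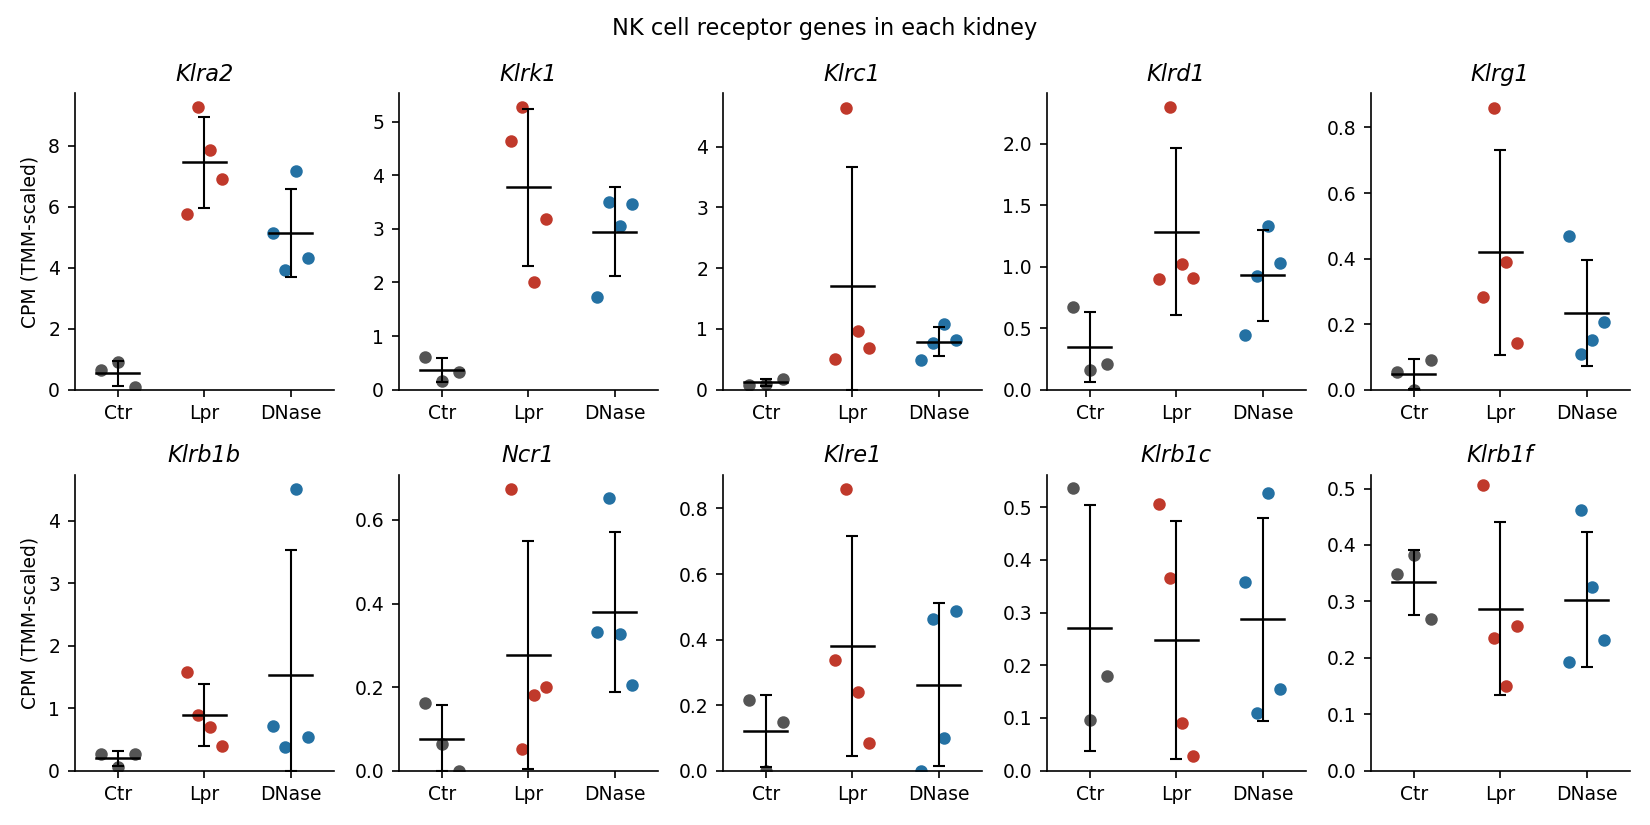
CPM of each receptor gene (y axis, linear, its own scale for each gene) in every kidney of Ctr, Lpr and DNase; points are kidneys, horizontal lines group means and vertical bars 1 SD, drawn no lower than 0. Klra2, Klrk1, Klrc1, Klrb1b and Klrg1 lie above all Ctr kidneys in every MRL/lpr kidney, whereas the ranges of Klrb1c and Klrb1f overlap across the groups.

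The comparison of Lpr with Ctr asks how the diseased MRL/lpr kidney differs from the C57BL/6J kidney. Klra2, Klrk1 and Klrc1 rose in Lpr. They were 3 of the 8 members that passed the filter on low counts, and no member fell. A gene was called at an adjusted p below 0.05 in edgeR's quasi-likelihood test with a log2 fold change beyond 2, a rule that called 4.65% of 16074 genes higher and 1.13% lower. The median log2 fold change of the 8 members was 2.57, against 0.03 over all genes tested. This median is a description, because members low in Ctr passed the filter through Lpr, which favours positive values. Klrc1 and Klrg1, for example, had at most 6 and 3 counts in a Ctr kidney. Klre1 and Ncr1 did not pass the filter, and had 1.61 and 1.80 in a fit without it.

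Klra2 encodes Ly49B, an inhibitory receptor of the Ly49 family that is known from myeloid cells. Its counts were 24, 28 and 3 in Ctr, and 205, 355, 262 and 243 in Lpr. Every Lpr kidney exceeded every Ctr kidney. The mean was 0.542 ± 0.411 CPM (SD, n = 3) in Ctr and 7.45 ± 1.48 CPM (SD, n = 4) in Lpr. This gave a log2 fold change of 3.78 (SE 0.605, edgeR adjusted p = 0.00516). Without Lpr replicate 3 the log2 fold change was 3.75 (adjusted p = 0.00626). Monocyte and macrophage markers moved the same way: 6 of 10 were called higher, and their summed level was 236 to 296 CPM in Ctr and 981 to 1910 CPM in Lpr. Among them, Itgam (CD11b) and the lysozyme gene Lyz2 had log2 fold changes of 3.74 and 4.00 (edgeR adjusted p = 0.000726 and 0.00056), while Csf1r had 0.89 and stayed below the fold threshold. None of the 10 was at 0 in any group. The part of myeloid cells in the Klra2 counts was not tested.

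Klrk1 encodes NKG2D, an activating receptor for stress-induced ligands that is found on NK cells and activated CD8+ T cells. Ctr kidneys held 23, 5 and 11 counts, and Lpr kidneys 165, 202, 67 and 112. The groups did not overlap, and the lowest Lpr kidney was replicate 3. The means were 0.369 ± 0.231 CPM in Ctr (SD, n = 3) and 3.78 ± 1.46 CPM in Lpr (SD, n = 4). The log2 fold change was 3.33 (SE 0.552, edgeR adjusted p = 0.00607), and 3.54 without Lpr replicate 3 (adjusted p = 0.00277).

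Klrc1 encodes NKG2A, the inhibitory chain that pairs with CD94. It gave 3, 3 and 6 counts in Ctr and 18, 178, 32 and 24 in Lpr. All Lpr kidneys were above all Ctr kidneys, but replicate 2 alone held most of the Lpr counts. The log2 fold change was 3.82 (SE 0.972, edgeR adjusted p = 0.0406). It was 2.55 without Lpr replicate 2 (adjusted p = 0.0274), and 4.01 without Lpr replicate 3 (adjusted p = 0.0333). The call was lost when any 1 of the 3 Ctr libraries was left out, with adjusted p between 0.107 and 0.164.

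Klrd1, Klrg1 and Klrb1b lay above Ctr in every Lpr kidney without passing the test. Klrd1 encodes CD94, the partner of NKG2A. It had 25, 5 and 7 counts in Ctr and 32, 88, 34 and 32 in Lpr (log2 fold change 1.87, SE 0.625, edgeR adjusted p = 0.111). Leaving out Lpr replicate 2 gave 1.41 (adjusted p = 0.247), and leaving out Ctr replicate 1 gave 2.78 (adjusted p = 0.0582). Klrg1, an inhibitory receptor for cadherins on mature effector cells, had 2, 0 and 3 counts in Ctr and 10, 33, 13 and 5 in Lpr. Its log2 fold change was 3.03 (SE 0.916, edgeR adjusted p = 0.0789), a value that rests on 5 counts in all of Ctr. Klrb1b encodes the inhibitory receptor NKR-P1B. Its counts were 10, 2 and 9 in Ctr and 56, 34, 23 and 14 in Lpr (log2 fold change 2.12, SE 0.647, edgeR adjusted p = 0.0827). DESeq2 called Klrb1b and Klrg1 at the same thresholds (adjusted p = 0.0197 and 0.0279), and a fit of all libraries together called Klrg1 (3.02, adjusted p = 0.0388). In all, 6 members did not overlap between the groups, beside 14.4% of all genes tested with Lpr above Ctr. Each of the 6 had a Ctr kidney below the filter's minimum count of 10, so none passed the filter through Ctr alone. Passing through Lpr favours genes that are higher in Lpr, and this count is a description.

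Klrb1c and Klrb1f were at similar low counts in both groups. Klrb1c encodes the NK1.1 antigen by which NK cells of C57BL/6 mice are usually stained. It had 20, 3 and 6 counts in Ctr and 18, 14, 3 and 1 in Lpr, with overlapping ranges (log2 fold change -0.13, SE 0.892, edgeR adjusted p = 0.949), and 0.13 without Lpr replicate 3. Klrb1f, an activating receptor of the same family, had 13, 12 and 9 counts in Ctr and 18, 9, 5 and 9 in Lpr (-0.21, SE 0.501, edgeR adjusted p = 0.853), and its log2 fold change was 0 without Lpr replicate 3. Whether reads of MRL/lpr alleles were lost in counting was not tested.

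Ncr1 and Klre1 were too low for the test. Ncr1 encodes NKp46, the receptor most restricted to NK cells and a subset of innate lymphoid cells. Its counts were 6, 2 and 0 in Ctr and 24, 2, 6 and 7 in Lpr. Klre1, which forms dimers with other lectin-like chains, had 8, 0 and 5 counts in Ctr and 12, 33, 8 and 3 in Lpr. Both genes overlapped between the groups. In a fit without the filter, their log2 fold changes were 1.80 for Ncr1 and 1.61 for Klre1 (edgeR adjusted p = 0.424 and 0.442).

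The effect of the injections was read from DNase against Lpr, which share strain and mutation. No member was called. Of the 10 genes, 9 passed the filter and 0 were called, as were 0 of all 15832 genes tested (0.0%). By edgeR, 0 members had an unadjusted p below 0.05, and 886 genes did. DESeq2 gave 1 member below it, Klra2, whose DESeq2 adjusted p was 0.597, and called 0 members and 4 genes. The smallest adjusted p over all genes in edgeR was 0.82.

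The lowest p among the members was that of Klra2. Its counts in DNase were 186, 144, 286 and 168, within or below the Lpr range of 205 to 355, and the 2 groups overlapped. Its mean was 5.13 ± 1.45 CPM in DNase (SD, n = 4) against 7.45 ± 1.48 CPM in Lpr (SD, n = 4), with a log2 fold change of -0.53 (SE 0.245, edgeR adjusted p = 0.854). For Klrk1, with 63, 129, 122 and 135 counts in DNase, it was -0.35 (SE 0.343, edgeR adjusted p = 0.856).

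The value for Klrc1 rested on 1 kidney. Klrc1 counts in DNase were 18, 28, 43 and 32, a range that lies within that of Lpr in counts. In CPM, DNase replicate 1 was just below the lowest Lpr kidney for Klrc1, at 0.496 against 0.506. The log2 fold change of -1.10 (SE 0.678, edgeR adjusted p = 0.854) became 0.14 without Lpr replicate 2. The same library turned Klre1 from -0.54 to 0.24. Klrd1, with 16, 34, 53 and 40 counts in DNase, went from -0.45 to -0.02 without it.

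The value for Klrb1b rested on 1 treated kidney. Its counts in DNase were 26, 14, 180 and 21. DNase replicate 3 exceeded every other kidney. In counts the remaining 3 lay within the Lpr range of 14 to 56. In CPM, DNase replicate 2 was just below it, at 0.380 against 0.398 in the lowest Lpr kidney. The log2 fold change of 0.80 (SE 0.788, edgeR adjusted p = 0.856) became -0.69 without that kidney. Klrg1 (17, 4, 6 and 8 counts), Ncr1 (12, 24, 13 and 8), Klre1 (0, 17, 4 and 19), Klrb1c (13, 4, 21 and 6) and Klrb1f (7, 17, 13 and 9) also overlapped with Lpr. Their log2 fold changes were -0.84, 0.45, -0.54 and 0.21 for the first 4, and Klrb1f did not pass the filter. With 1 library left out, Klrg1 ran from -1.42 (without DNase replicate 1) to -0.22 (without Lpr replicate 2), and Ncr1 from 0.07 (without DNase replicate 2) to 1.40 (without Lpr replicate 1). No member had separate ranges in DNase and Lpr, beside 1.92% of all genes tested with DNase above Lpr and 1.87% with DNase below.

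**Figure D2:**
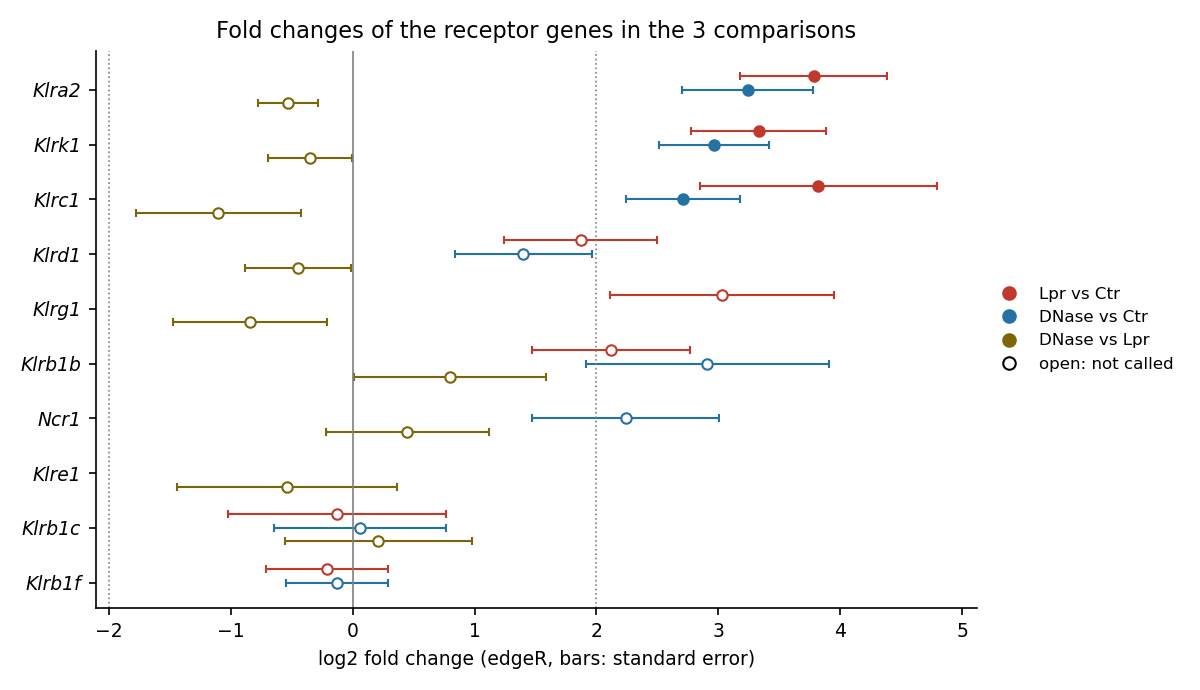
Log2 fold change (x axis) of each receptor gene in the 3 comparisons, with bars of 1 standard error; filled points passed the test, open points did not, dotted lines mark the threshold of 2, and a missing point is a gene that did not pass the filter. Klra2, Klrk1 and Klrc1 are filled in both comparisons with Ctr, and every point of DNase against Lpr is open.

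DNase against Ctr used the same 3 Ctr kidneys as Lpr against Ctr, so both sets of values share them. Klra2, Klrk1 and Klrc1 rose, and no member fell, among the 8 that passed the filter. The rule called 4.56% of 16100 genes higher and 1.45% lower. The log2 fold change was 3.24 for Klra2 (SE 0.535, edgeR adjusted p = 0.00222), 2.96 for Klrk1 (SE 0.451, adjusted p = 0.00139) and 2.71 for Klrc1 (SE 0.464, adjusted p = 0.00272). Klrb1b had 2.91 (SE 1.00, edgeR adjusted p = 0.0705), which was 1.41 without DNase replicate 3. A fit without the filter called Klrb1b (2.91, adjusted p = 0.0429). Ncr1 had 2.24 (SE 0.766, adjusted p = 0.0683) and Klrd1 1.40 (SE 0.56, adjusted p = 0.114). Without Ctr replicate 1, both Ncr1 and Klrd1 were called, at 3.46 and 2.31. Klrg1 did not pass this filter, and had 2.18 in a fit without it (adjusted p = 0.12). Klrb1c and Klrb1f had log2 fold changes of 0.06 and -0.13. All DNase kidneys were above all Ctr kidneys for 6 members (Klrb1b, Klrc1, Klrg1, Klrk1, Klra2 and Ncr1), beside 18.0% of all genes tested. That share covers only genes past the filter, which Klrg1 did not pass. All 8 members that passed it had a Ctr kidney below its minimum count of 10, so none passed through Ctr alone. Klrc1 and Ncr1 had at most 6 counts in any Ctr kidney. Passing through DNase favours positive values, so this count of members is a description.

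Within the MRL/lpr kidneys the members did not vary as 1 block. Lpr replicate 2 was the highest of the 8 kidneys for 6 of the 10 genes, Klrc1, Klrd1, Klre1, Klrg1, Klrk1 and Klra2, but the lowest for Ncr1. DNase replicate 3 was the highest for Klrb1b and Klrb1c. Lpr replicate 2 also had the highest summed level of cytotoxic effector genes, 182 CPM against 40.0 to 92.7 CPM in the other 7, and of T cell markers, 167 CPM against 79.8 to 123 CPM. Monocyte and macrophage markers were highest there too, at 1910 CPM against 753 to 1580 CPM. The adaptors and signaling partners were also highest there, at 612 CPM against 380 to 552 CPM. The part of T cells and of myeloid cells in that pattern was not tested. B cell markers summed highest in DNase replicate 3, at 36.8 CPM against 10.2 to 26.6 CPM in the other 7.

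**Figure D3:**
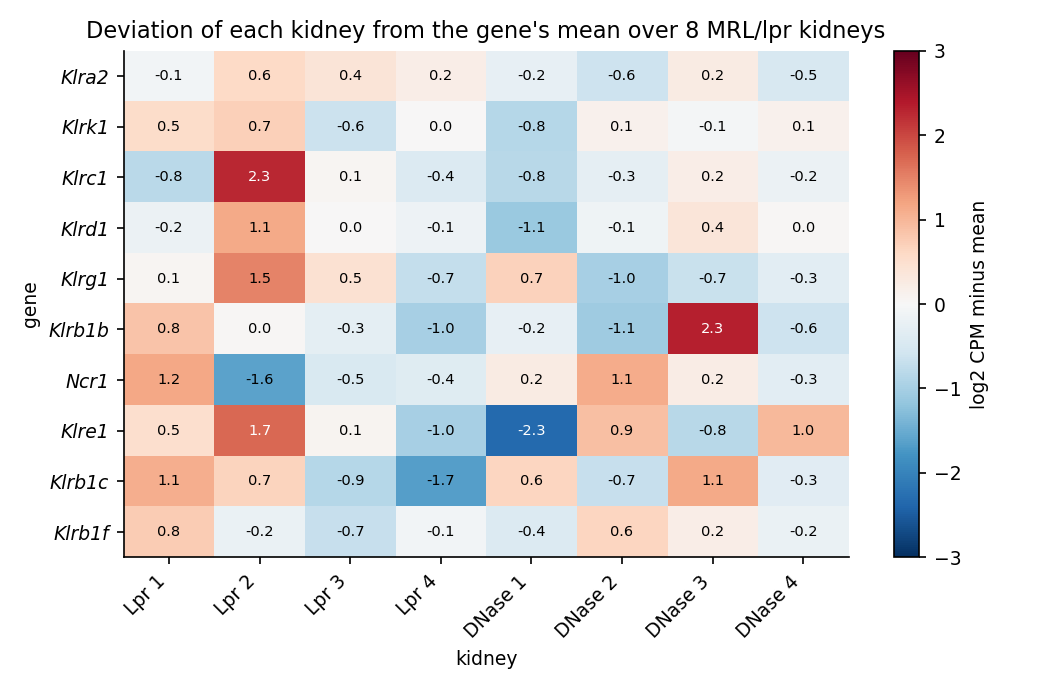
Deviation of each MRL/lpr kidney (columns) from the gene's mean over the 8 kidneys, in log2 CPM, for each receptor gene (rows); red is higher and blue is lower. Lpr replicate 2 is the highest column for 6 genes and the lowest for Ncr1, and the high value of Klrb1b sits in DNase replicate 3.

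The genes closest to the mean profile of the members over these 8 kidneys were Cd86, a costimulatory ligand of antigen-presenting cells, Rhoh, Ppfia4, Uhrf1 and Unc93b1, a chaperone of endosomal Toll-like receptors. They were picked for the smallest root mean square difference from that profile, 0.134 to 0.146 in log2 CPM. Their place below the median of 0.512 over 15823 genes was therefore set by the choice. The profile averages members that did not vary as 1 block. In Lpr replicate 2 it was 0.68, with Klrc1 at 2.25 and Ncr1 at -1.60. All points share the 8 libraries, and the likeness is a description.

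T cell markers were also higher in MRL/lpr kidneys. Of 10 T cell markers tested, 9 were called higher in Lpr than in Ctr, among them Cd6 and Cd5 with log2 fold changes of 5.12 and 4.32, and their sum was 8.52 to 12.4 CPM in Ctr and 79.8 to 167 CPM in Lpr. None of the 11 measured was at 0 in any group. Cd3e, a chain of the T cell receptor complex that NK cells lack on their surface, had 15, 16 and 14 counts in Ctr and 159, 510, 152 and 208 in Lpr. Its log2 fold change was 3.99 (edgeR adjusted p = 0.00191), and that of Cd8a was 4.31 (adjusted p = 0.000152). The part of T cells in the receptor counts was not tested.

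Set against the summed counts of the 3 CD3 genes (Cd3d, Cd3e and Cd3g) of the same kidney, the members divided. This log2 ratio, with 0.5 added to each receptor count, differed least between group means for Klra2, at -2.06 ± 1.77 in Ctr, -1.84 ± 0.45 in Lpr and -2.26 ± 0.49 in DNase (SD, n = 3, 4 and 4). For Klrk1 it was -2.30 ± 0.54, -2.89 ± 0.99 and -3.07 ± 0.27, with the Ctr range overlapping both others. It was lower in MRL/lpr kidneys for Klrd1, at -2.47 ± 0.69 in Ctr against -4.47 ± 0.43 in Lpr and -4.77 ± 0.25 in DNase, with no overlap. The gap was wider for Klrb1c (-2.86 ± 0.79, -7.26 ± 1.88 and -6.57 ± 1.08) and Klrb1f (-2.27 ± 0.51, -6.58 ± 1.34 and -6.32 ± 0.54), again with Ctr above every MRL/lpr kidney. Ncr1 overlapped, at -4.81 ± 1.72, -6.99 ± 2.11 and -6.06 ± 0.88. In Lpr against Ctr, Cd3d, Cd3e and Cd3g had log2 fold changes of 4.05, 3.99 and 4.14. Klrb1c and Klrb1f had -0.13 and -0.21, so the wide gap in their ratios restates the rise of the CD3 genes. The ratios to CD3 are descriptions without a test, and those of genes with few counts are imprecise.

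**Figure D4:**
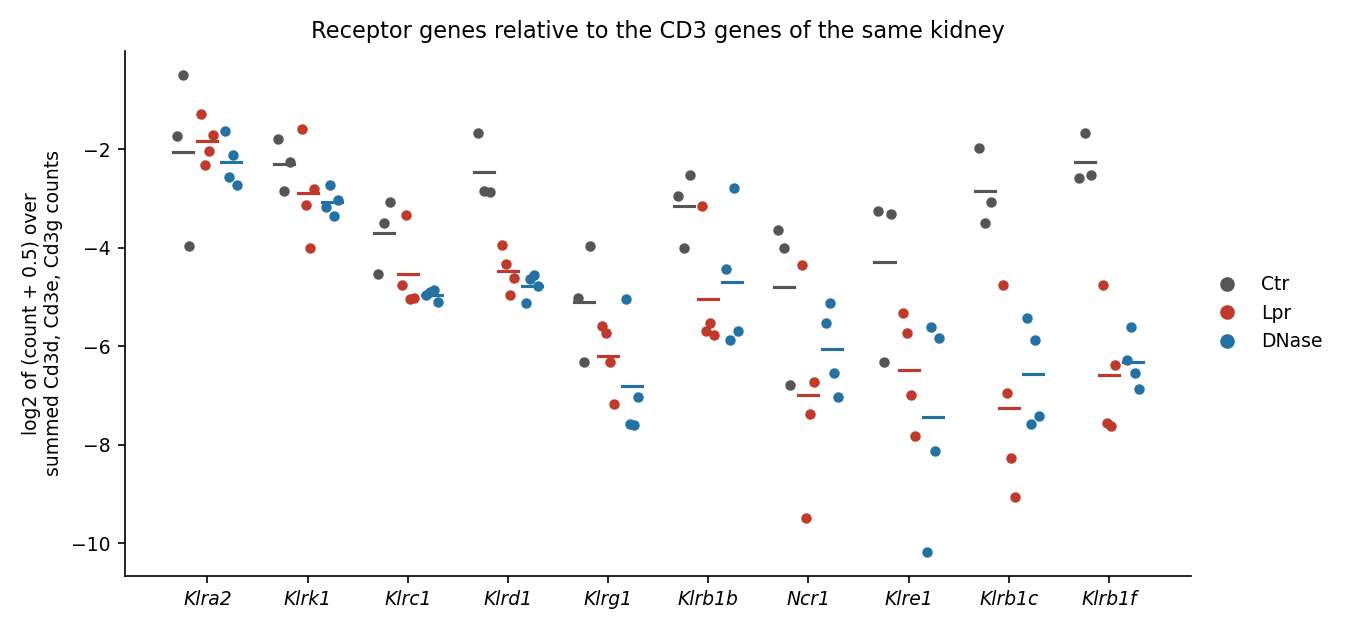
Log2 ratio of each receptor gene's count, plus 0.5, to the summed CD3 gene counts of the same kidney (y axis); points are kidneys and short lines group means of Ctr, Lpr and DNase. Klra2 and Klrk1 overlap across groups, whereas Klrd1, Klrb1c and Klrb1f lie lower in all MRL/lpr kidneys than in Ctr.

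Ratios between members, in FPKM, differed as well. Klrk1 over Klrd1 was 0.335, 0.364 and 0.572 in Ctr. It was 1.88, 0.835, 0.717 and 1.27 in Lpr and 1.43, 1.38, 0.838 and 1.23 in DNase, so all 8 MRL/lpr kidneys lay above Ctr. Klrb1b over Klrb1c was 0.595, 0.793 and 1.78 in Ctr, 3.70, 2.89, 9.12 and 16.7 in Lpr, and 2.38, 4.16, 10.2 and 4.16 in DNase, again without overlap. Few counts lie behind these values. The ratios of 9.12 and 16.7 rest on 3 counts and 1 count of Klrb1c, and 0.793 on 2 counts of Klrb1b and 3 of Klrb1c. Both genes also share transcript sequence with Gm44511, so their ratio is imprecise. Klrc1 over Klrd1, the chains of the CD94/NKG2A receptor, did overlap, with 0.0742 to 0.53 in Ctr, 0.348 to 1.25 in Lpr and 0.495 to 0.696 in DNase. These ratios were chosen after the values were seen.

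Of the adaptors and signaling partners, a list that includes kinases and phosphatases, 9 of 17 tested rose in Lpr against Ctr, and none fell. Hcst encodes DAP10, the partner of NKG2D. It had 4, 12 and 18 counts in Ctr and 41, 154, 148 and 45 in Lpr (log2 fold change 2.99, edgeR adjusted p = 0.0335). The call was lost without any 1 Ctr library or without Lpr replicate 2, with adjusted p from 0.0711 to 0.119. Tyrobp (DAP12) and Fcer1g, which myeloid cells also use, had log2 fold changes of 2.79 and 2.43 (adjusted p = 0.0013 and 0.00358). The largest in the list were Sh2d1a (4.27) and the T cell kinase Lck (3.50). Sh2d1b1, encoding the NK cell adaptor EAT-2, had 1.25 (adjusted p = 0.148), and the phosphatase Ptpn6 (SHP-1), which acts below inhibitory receptors, had 0.81 (adjusted p = 0.0173), below the fold threshold.

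Among the ligands, 2 of 8 tested rose and 1 fell. H2-T23 encodes Qa-1, the ligand of CD94/NKG2A. Its counts were 4071, 3783 and 2563 in Ctr and 17216, 18343, 14016 and 10076 in Lpr, with every Lpr kidney above Ctr (log2 fold change 2.04, SE 0.258, edgeR adjusted p = 0.00184). In DNase it had 9807, 9802, 11232 and 10614 counts, and against Lpr the log2 fold change was -0.61 (adjusted p = 0.82). Clec2i, a lectin-like ligand of the Klrb1 family, rose by 2.38 on the log2 scale (adjusted p = 0.0313). Clec2h, named after its values were seen, fell by 2.08 on the log2 scale (adjusted p = 0.00138), from 2907, 2951 and 3309 counts in Ctr to 757, 686, 1020 and 540 in Lpr. Clec2d, the ligand of NKR-P1B, had 0.92 (adjusted p = 0.224), with Lpr replicate 3 highest at 6078 counts, and 0.42 without that library. Of the NKG2D ligands, Raet1e had 7, 0 and 6 counts in Ctr and 10, 34, 19 and 15 in Lpr (2.09, adjusted p = 0.162). Ulbp1 and H60b did not pass the filter, with at most 11 and 21 counts in an Lpr kidney. In DNase against Ctr, where it was tested, H60b rose from 5, 1 and 4 counts to 26, 21, 15 and 8 (2.22, adjusted p = 0.0304). Cdh1 (E-cadherin, bound by KLRG1), an epithelial gene of the kidney, had -0.36 (adjusted p = 0.266).

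Of 17 other lectin-like receptor genes in the table, most of them from the same complex, 5 passed the filter and 3 rose in Lpr against Ctr. Cd69, an early activation antigen of lymphocytes, had a log2 fold change of 3.96 (edgeR adjusted p = 0.00666). Klra17, encoding Ly49Q of myeloid and plasmacytoid dendritic cells, had 4.88 (adjusted p = 0.0224). Klra3, named after its values were seen, had 3.81 (adjusted p = 0.0243). Klrg2, also named after its values were seen, had 37 to 525 counts in Ctr and 79 to 291 in Lpr (log2 fold change -0.45, adjusted p = 0.779). Several Ly49 and NKG2 genes were near 0. Klra1 had at most 2 counts in any kidney. Klra7, Klrb1a and Klrc2 had 0 counts in all 3 Ctr kidneys, which allows up to 3 counts per library, and at most 10, 9 and 16 counts in an MRL/lpr kidney. Klra4 and Klra6, named after their values were seen, had 0 counts in all 8 MRL/lpr kidneys and at most 1 and 2 counts in Ctr.

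The effector genes of cytotoxic lymphocytes rose in 9 of 11 tested. Prf1 (perforin), Gzma, Gzmb and Nkg7 had log2 fold changes of 4.06, 3.42, 5.17 and 4.04 in Lpr against Ctr (edgeR adjusted p = 0.0117, 0.0124, 0.00918 and 0.00148). Gzmk, at 5.41, was the largest of the list. Gzmb had 9, 6 and 3 counts in Ctr, 263, 546, 75 and 58 in Lpr, and 78, 62, 63 and 99 in DNase. The DNase and Lpr ranges overlapped (log2 fold change -1.67, adjusted p = 0.844). Transcription factors rose in 4 of 9 tested, among them Eomes (4.26, adjusted p = 0.00389) and Tbx21 (2.68, adjusted p = 0.0178), which specify NK cells and effector CD8+ T cells, and Ikzf3 (2.96). Nfil3, needed for NK cell development, had 1.83 (adjusted p = 0.051).

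Other NK cell receptors and adhesion genes rose in 13 of 18 tested, led by Tigit (5.55) and Slamf6 (5.40), both also carried by T cells. Il2rb, the receptor chain for interleukins 2 and 15, had 3.30 (edgeR adjusted p = 0.006). Of the NK supporting cytokines, 1 of 6 tested rose, Il21 (4.36, adjusted p = 0.016), and Il15 had 0.21 (adjusted p = 0.614). Innate lymphoid cell markers rose in 1 of 7 (Il7r, 3.80). B cell markers rose in 1 of 7 (Cd79a, 3.09), and kidney markers in 0 of 10, with -0.38 for Umod and -0.37 for Lrp2. In DNase against Ctr, 10 of 17 adaptors and signaling partners, 1 of 9 ligands and 9 of 11 effector genes rose. So did 14 of 19 other NK cell receptors, 4 of 9 transcription factors and 8 of 10 T cell markers. Of the macrophage and B cell markers, 6 of 10 and 4 of 8 rose, and no gene of these lists fell. By edgeR, none of these lists held a gene called in DNase against Lpr. In that comparison the log2 fold changes of all 11 effector genes tested were negative, with a median of -0.66, and those of all 8 B cell markers were positive, with a median of 1.39, beside -0.02 over all genes tested. The summed level of the effector genes was 182 CPM in Lpr replicate 2. In the other Lpr kidneys it was 47.7 to 92.7 CPM, which overlapped with 40.0 to 66.7 CPM in DNase. The genes of a list share the same 8 kidneys, so these are descriptions.

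Several calls in the lists rested on single libraries. In Lpr against Ctr, leaving out 1 library brought the transcription factors from 4 to as few as 1 (without any of the 3 Ctr libraries) and to 2 without Lpr replicate 2. The other lectin-like receptor genes went from 3 to 1 (without Ctr replicate 2 or 3, or Lpr replicate 2), and the rising ligands from 2 to 0 (without Ctr replicate 3 or Lpr replicate 2). The single calls of Cd79a and Il21 were lost without Ctr replicate 1 or 3, among others, and Clec2i, Sh2d1a, Klra3, Tbx21 and Ikzf3 lost theirs without any 1 Ctr library. H2-T23 missed the fold threshold without Ctr replicate 3 (1.86), Lpr replicate 1 (1.96) or Lpr replicate 2 (1.95), and Clec2h did so without Lpr replicate 4 (-1.95). Counts of T cell markers, of effector genes and of adaptors and signaling partners each stayed at 7 to 9. Those of macrophage markers stayed at 6 to 7. Other NK cell receptors and adhesion genes, 13 with all libraries, ran from 9 (without Ctr replicate 1 or 2) to 14. In DNase against Ctr, H60b lost its call without any 1 Ctr library. Without Lpr replicate 3, the B cell markers called in Lpr against Ctr were 2 in place of 1.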

How the data were processed

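RNA-seq gene counts and FPKM values of 11 kidney libraries (3 Ctr, 4 Lpr, 4 DNase) were used, grouped by the titles and genotypes of the labels. The deposited counts are the authors' raw counts of paired-end fragments per gene symbol. The submitters' processing notes name fastp, HTSeq and mm10, the study's methods credit HTSeq with placing reads on genes, and no separate aligner or annotation is named in the sources used here. The deposited FPKM values are the authors' division of these counts by gene length and library total, and they served to compare levels between genes. The number of columns not used was 0. The counts per library are given in the report and limit what low genes can show.

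Counts were filtered (filterByExpr, minimum count 10), scaled by TMM and tested with edgeR 4.0.16 (R 4.3.3), with only the 2 groups compared in each fit and Benjamini-Hochberg adjustment over all genes tested. A gene was called at an adjusted p below 0.05 and an absolute log2 fold change above 2, the thresholds of the study's methods. The scripts were tested on simulated data. Alternatives used DESeq2 1.42.0, limma 3.58.1 on log2(FPKM + 1) and log2(FPKM + 0.1), other scaling, filters, thresholds, gene length offsets, a replicate block, and each library left out in turn. P-values measure the spread between mice.

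Positions and transcript sequence came from the GRCm38 annotation, and promoters from RefSeq (GRCm38.p6). Named were all members, a written list of adaptors, ligands, receptors and markers, for each list the 2 called genes of highest fold change in Lpr against Ctr, and the 5 genes nearest to the mean member profile. Members and lists were chosen with earlier results of these data known.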

Additional observations from a re-analysis of the deposited data

Results flagged for a closer look

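In groups of 4 kidneys, a kidney was singled out when its gap to the nearest of the others, divided by the whole range of the group, exceeded Dixon's critical value for 4 samples. Of 20 groups examined (10 genes in Lpr and in DNase), 3 were singled out. The critical value is set for about 1 in 20 by chance among independent, normally distributed values. The genes here share the same kidneys and have low counts, so that rate need not hold. Klrb1b was far higher in DNase replicate 3 than in the other DNase kidneys, with a ratio of 0.919. Klrc1 stood apart in Lpr replicate 2, with a ratio of 0.89, and Klrd1, which encodes the partner chain, stood apart in the same kidney with 0.912.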

How the results depend on the processing

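The 3 members called in Lpr against Ctr were 5 by DESeq2 and 0 by limma on log2(FPKM + 1). In that limma run, Klra2 (1.7, adjusted p = 0.000723) and Klrk1 (0.9, adjusted p = 0.0144) passed the p threshold and missed only the fold threshold of 2. Klrc1 (0.68, adjusted p = 0.282) missed both. The cause of the difference between tools was not tested. Limma on log2(FPKM + 0.1) called 2 in each comparison with Ctr, without Klrc1 (2.11, adjusted p = 0.0719, in Lpr against Ctr and 1.66 in DNase against Ctr). In DNase against Ctr, the 3 were 0 by limma on log2(FPKM + 1), and 3 to 5 when a library was left out (5 without Ctr replicate 1). In Lpr against Ctr leaving out a library gave 2 or 3, and in DNase against Lpr every alternative run gave 0. With the replicate block the counts were 3, 0 and 4 for Lpr against Ctr, DNase against Lpr and DNase against Ctr, the last adding Klrb1b (2.73, adjusted p = 0.0471). Deviations of same-numbered kidneys correlated between -0.277 and 0.159, so the numbers were not taken as pairs. With all libraries in 1 fit, Klrc1 lost its call in DNase against Ctr (adjusted p = 0.0644), and Lpr against Ctr gave 4 with Klrg1. Without the filter, DNase against Ctr gave 4 with Klrb1b. Counts of listed genes with 1 library left out were added after seeing the data.

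Genes that were not called could change direction, and the cause was not tested. With a library left out, the log2 fold change of Klrb1c ran from -0.52 to 0.84 in Lpr against Ctr, from -0.26 to 0.80 in DNase against Lpr, and from -0.33 to 1.04 in DNase against Ctr. It was 0.28 with the replicate block in Lpr against Ctr and -0.07 with gene length offsets in DNase against Ctr. In DNase against Lpr, Klrb1b ran from -0.69 to 1.23, Klrc1 from -1.40 to 0.14 and Klre1 from -1.02 to 0.24. In DNase against Ctr, Klrb1f ran from -0.40 to 0.03.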
